A study of Mus musculus with 15 samples.

Results

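Respiratory complexes II, III and IV of the mouse mitochondrion were followed through 34 nuclear genes: 28 subunits, the electron carrier cytochrome c and 5 assembly factors of complex IV. The genes were taken by symbol from the Ensembl identifiers of the count table, through the GENCODE M21 annotation of GRCm38, and were 34 of the 30672 genes in the table. All 34 passed the filter on low counts, among 15533 genes tested. The rule names the genes by complex and uses no measured value, though it was proposed with earlier results of these data known.

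The samples were tibialis anterior muscles, a fast limb muscle, from males of strain 129Pas, collected at 7 weeks of age. *Mtm1*, on the X chromosome, encodes myotubularin, a lipid phosphatase whose loss causes X-linked myotubular myopathy. The groups were untreated wild type (WT, n = 4), wild type given tamoxifen (WT + TAM, n = 4), untreated Mtm1-/y mice, which carry the disrupted gene on their single X chromosome (n = 4), and Mtm1-/y mice given tamoxifen (Mtm1-/y + TAM, n = 3). The series asks how tamoxifen, a ligand of oestrogen receptors, acts in this mouse model of the myopathy; its dose and schedule are not stated in the labels. These also name no vehicle for the untreated groups, and replicates are taken as separate mice from the series' design text, which gives 3 or 4 per group.

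Complex II, succinate dehydrogenase, passes electrons from succinate to ubiquinone. Complex III takes them from ubiquinol to cytochrome c, a small soluble protein, and complex IV, cytochrome c oxidase, passes them on to oxygen. Every subunit of complex II is encoded in the nucleus, whereas complexes III and IV are built around proteins made from mitochondrial DNA. Several subunits of complex IV exist in a ubiquitous form and in a form found mainly in heart and skeletal muscle, each from its own gene.

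Total counts per library ranged from 18042558 to 45823277, and the 34 genes took 0.671 to 1.06% of them. *Mtm1* read 14.9 to 15.6 CPM (read counts scaled to library size with TMM factors) in WT and 13.5 to 17.7 CPM in WT + TAM, against 2.91 to 3.63 CPM in Mtm1-/y and 3.04 to 3.71 CPM in Mtm1-/y + TAM libraries, so each library fitted its genotype label. These values do not check the treatment label. The myofibre markers *Acta1* and *Ckm* were abundant in every library, as in muscle. A pair of libraries stood apart for the respiratory genes: the median of the 29 subunits, cytochrome c included, differed from the WT mean by -0.48 on the log2 scale in WT + TAM replicate 1 and by -0.44 in Mtm1-/y replicate 1, against -0.09 to 0.18 in the other 13 libraries. WT + TAM replicate 1 had the lowest value of its group for 28 of the 29 subunits, and Mtm1-/y replicate 1 for 24 of 29. Counts of members called are therefore also given without these 2 libraries. The pair was picked by the values of the subunits themselves, after the data were seen. Calls gained or kept without it are therefore not independent support.

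**Figure D1:**
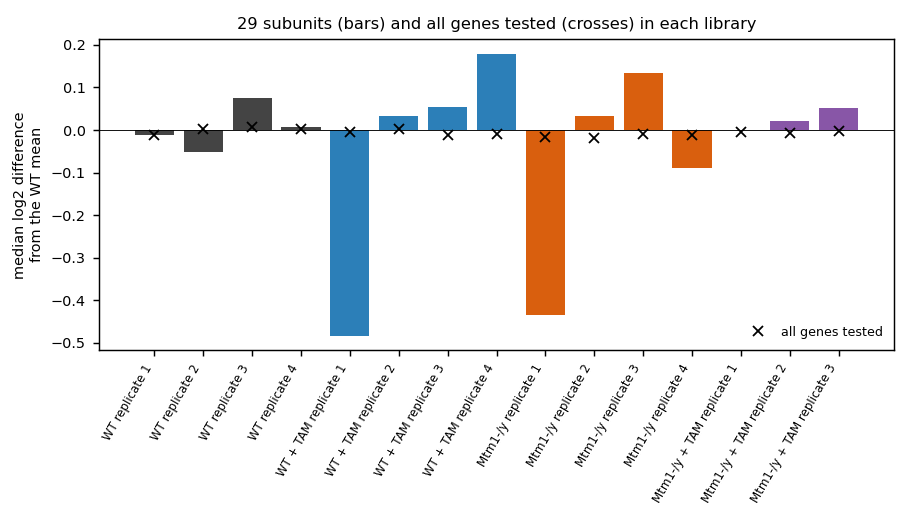
Median log2 difference from the WT mean over the 29 subunits (bars, coloured by group) and over all genes tested (crosses) in each of the 15 libraries. The bars of WT + TAM replicate 1 (-0.48) and Mtm1-/y replicate 1 (-0.44) stand apart, while the crosses stay near 0 in every library.

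In untreated wild-type muscle the levels of the members spanned a wide range. Scaled to exon length, the muscle isoform *Cox6a2* was the highest of the 34 at 796 CPM per kb, followed by *Cox4i1*, the common form of subunit 4 of complex IV, at 609 CPM per kb. *Cox8b* and *Cox6b1* followed at 573 and 573 CPM per kb and did not differ beyond the spread between mice. Complex III subunits lay between 104 (*Uqcrb*) and 416 CPM per kb (*Uqcr10*). Complex II subunits lay between 115 (*Sdhc*) and 266 CPM per kb (*Sdhd*). Assembly factors were low, from 1.95 (*Cox17*) to 12.4 CPM per kb (*Surf1*).

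*Cycs* and *Cox7c* were listed far below their partner proteins, at 7.86 and 0.898 CPM per kb. Both have copies of nearly the same sequence elsewhere in the genome. For *Cycs*, 10 such copies in the table held counts equal to 40.2% of its own, and for *Cox7c*, 5 copies held 10.4% of its 618 counts over all libraries. How reads matching several places were counted is not stated, so the levels of these genes are uncertain. The copies of every other member held at most 0.694% of its counts.

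In Mtm1-/y muscle 8 of the 34 genes differed from WT at an adjusted p under 0.05, 3 higher and 5 lower, against 30.4% of all genes tested. The members' share was 23.5%. Of all genes 15.5% were called higher and 14.9% lower. The genes that fell were *Sdha*, *Uqcrc1*, *Uqcrc2*, *Uqcrfs1* and *Cycs*, and those that rose were *Cox6a1*, *Cox8a* and *Cox8b*. The median log2 fold change of the members was -0.09, that of all genes 0.000455. Values of Mtm1-/y and WT did not overlap for 8 genes on the lower side (23.5%, against 15.7% of all genes) and for 3 on the higher side (8.82%, against 14.8%). Without the 2 libraries that stood apart, calls over all genes also grew, from 2407 higher and 2320 lower to 2619 and 2638. In that setting 16 members passed, 8 in each direction, the same 8 genes among them. The log2 fold changes of these were then -0.57 for *Sdha*, -0.51 for *Uqcrc1*, -0.54 for *Uqcrc2*, -0.42 for *Uqcrfs1*, -1.0 for *Cycs*, 0.59 for *Cox6a1*, 0.78 for *Cox8a* and 0.50 for *Cox8b*. With library size alone as the scaling, the median of all genes moved to 0.15 and that of the members to 0.05, and calls over all genes went from 2407 higher and 2320 lower to 3652 and 1429. With upper-quartile factors they were 2081 higher and 2721 lower.

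**Figure D2:**
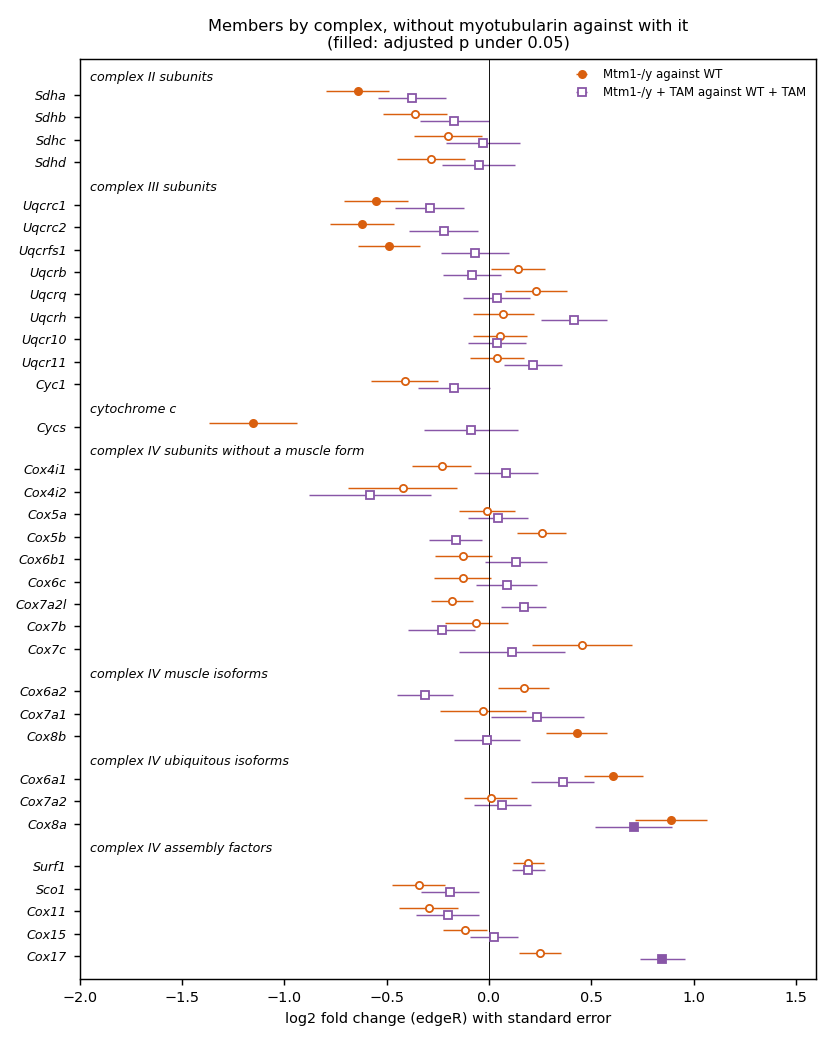
Log2 fold change with its standard error for each of the 34 genes, grouped by complex, for Mtm1-/y against WT (circles) and Mtm1-/y + TAM against WT + TAM (squares), with filled symbols where the adjusted p was under 0.05. *Sdha*, *Uqcrc1*, *Uqcrc2* and *Cycs* lie left of 0 in the untreated comparison, while *Cox6a1* and *Cox8a* lie right of 0 in both.

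The 8 genes lie apart in the GRCm38 genome. Those that fell are *Sdha* at chr13:74322254-74350280 (minus strand), *Uqcrc1* at chr9:108936633-108949623 (plus strand), *Uqcrc2* at chr7:120635176-120659524 (plus strand), *Uqcrfs1* at chr13:30540308-30545362 (minus strand) and *Cycs* at chr6:50562563-50566538 (minus strand). Those that rose are *Cox6a1* at chr5:115345642-115348981 (minus strand), *Cox8a* at chr19:7215153-7217616 (minus strand) and *Cox8b* at chr7:140898945-140900446 (minus strand). Exons of *Uqcrc2* overlap those of *Pdzd9* on the opposite strand over 504 bases, and the other 7 overlap no exon of another gene.

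All 4 genes of complex II had negative log2 fold changes, and its catalytic subunit passed the test. *Sdha*, the flavoprotein that oxidises succinate, read 1033, 1026, 986 and 987 CPM in WT and 549, 578, 839 and 618 CPM in Mtm1-/y muscle. Each Mtm1-/y library lay below each WT library, with replicate 3 the highest of the mutants. The log2 fold change was -0.64 ± 0.15 (SE), a fall of 35.9% (edgeR adjusted p = 0.00555). In bulk muscle, fewer cells of a type and less RNA per cell cannot be told apart. *Sdhb*, the iron-sulphur subunit, differed by -0.36 ± 0.16 with overlapping groups (edgeR adjusted p = 0.0897). The membrane anchors *Sdhc* and *Sdhd* differed by -0.20 ± 0.17 and -0.28 ± 0.17 (edgeR adjusted p = 0.391 and 0.214).

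In complex III, 3 of the 4 subunits with the longest coding sequences fell, and the 5 short ones did not pass the test. *Uqcrc1*, which encodes a core protein of the matrix arm, read 1127, 1087, 1193 and 1086 CPM in WT and 690.0, 724, 934 and 713 CPM in Mtm1-/y muscle. The groups did not overlap, and the log2 fold change was -0.55 ± 0.16 (edgeR adjusted p = 0.0149). Its partner *Uqcrc2* read 724, 722, 718 and 739.6 CPM in WT and 394, 435, 604 and 456 CPM in Mtm1-/y libraries. WT libraries were tightly grouped and all above the mutants, with a log2 fold change of -0.62 ± 0.16 (edgeR adjusted p = 0.00775).

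*Uqcrfs1*, the Rieske iron-sulphur protein that hands electrons to cytochrome c1, read 509.8, 534, 593 and 546 CPM in WT and 329.8, 396, 440.2 and 391 CPM in Mtm1-/y muscle. Again no mutant reached the lowest WT value. It fell by 0.49 ± 0.15 on the log2 scale (edgeR adjusted p = 0.0248). This call was lost without WT replicate 3 (adjusted p = 0.0649), WT replicate 4 (0.0509) or Mtm1-/y replicate 1 (0.0583), but held without both libraries that stood apart. *Cyc1*, cytochrome c1 itself, read 616, 547, 595 and 567 CPM in WT and 376, 430.3, 542 and 400.5 CPM in Mtm1-/y muscle. Its groups did not overlap, and its log2 fold change of -0.41 ± 0.16 missed the threshold (edgeR adjusted p = 0.0683) but passed without the 2 libraries (-0.34, adjusted p = 0.0193).

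None of the 5 small subunits of complex III passed the test. *Uqcrq*, which sits beside cytochrome b, read 269.6, 267, 301 and 283 CPM in WT and 262, 390.5, 338 and 325 CPM in Mtm1-/y muscle, with 3 of 4 mutants above every WT library and replicate 1 below them. Its log2 fold change was 0.23 ± 0.15 (edgeR adjusted p = 0.271). *Uqcrh*, the acidic hinge protein next to cytochrome c1, read 310.3, 303, 327 and 302 CPM in WT and 223, 365, 355 and 361 CPM in Mtm1-/y muscle. Mtm1-/y replicate 1 lay far below the others, and the difference was 0.07 ± 0.15 (edgeR adjusted p = 0.756). Without the 2 libraries both passed on the higher side, *Uqcrq* at 0.33 (adjusted p = 0.0145) and *Uqcrh* at 0.22 (adjusted p = 0.04). *Uqcrb*, *Uqcr10* and *Uqcr11* differed by 0.14 ± 0.13, 0.05 ± 0.13 and 0.04 ± 0.13, with overlapping groups.

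*Cycs*, the gene of the cytochrome c that shuttles between complexes III and IV, had the largest fall of the 34. It read 30.1, 26.9, 24.4 and 25.6 CPM in WT and 8.21, 10.9, 18.6 and 10.6 CPM in Mtm1-/y muscle. No value was shared between the groups, and Mtm1-/y replicate 3 was the nearest to WT. The log2 fold change was -1.15 ± 0.21, a fall of 55.0% (edgeR adjusted p = 0.00122). Adding the counts of its near-identical copies, a choice made after seeing the data, gave -0.90 (adjusted p = 0.000267).

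**Figure D3:**
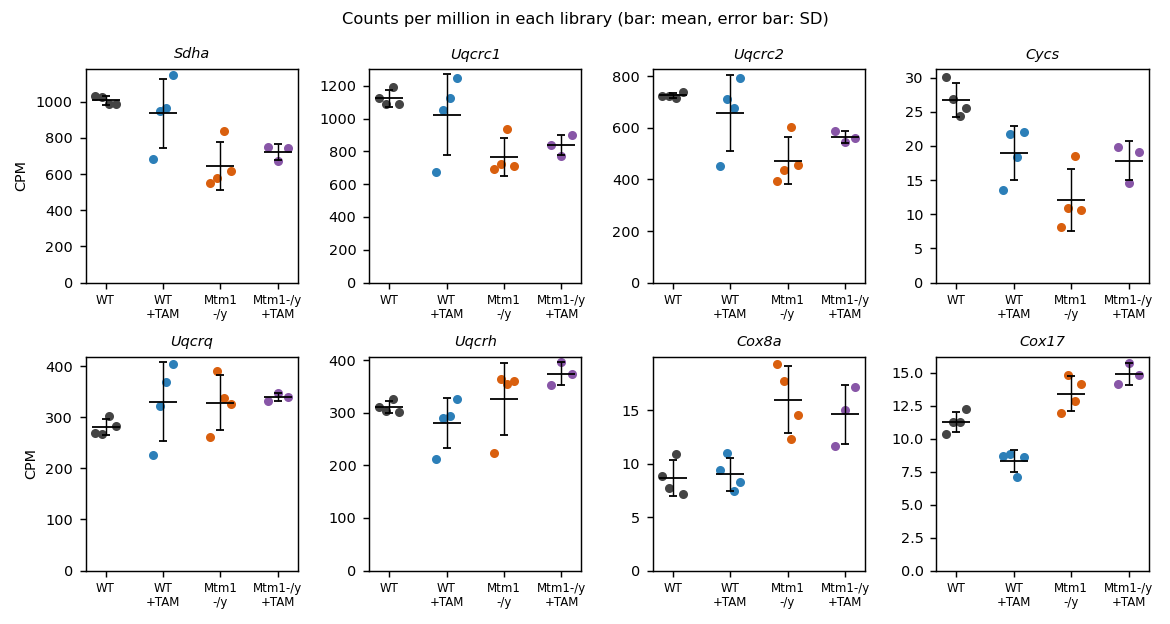
CPM of 8 genes in each library (points), with the group mean (bar) and SD (error bar), on axes that start at 0. *Sdha*, *Uqcrc1*, *Uqcrc2* and *Cycs* are lower in every Mtm1-/y library than in any WT library, *Uqcrq* and *Uqcrh* overlap, *Cox8a* is higher in every Mtm1-/y library than in any WT library, and *Cox17* is lowest in WT + TAM.

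Complex IV subunits without a muscle form did not pass the test in any of 9 genes, of which 7 had a negative and 2 a positive log2 fold change in Mtm1-/y against WT. With library size alone as the scaling, *Cox5a*, *Cox6b1*, *Cox6c* and *Cox7b* turned from negative to positive. *Cox4i1* read 894, 923, 1013 and 944 CPM in WT and 658, 844, 849.8 and 867 CPM in Mtm1-/y muscle. Every mutant was lower than every WT library, with a log2 difference of -0.23 ± 0.14 (edgeR adjusted p = 0.245). *Cox5b*, a zinc-binding matrix subunit, read 91.9, 82.5, 92.8 and 77.5 CPM in WT and 94.6, 113, 111 and 93.5 CPM in Mtm1-/y muscle. Here every mutant was higher, by 0.26 ± 0.12 (edgeR adjusted p = 0.116). It passed without the 2 libraries at 0.30 (adjusted p = 0.0293). *Cox5a*, *Cox6b1*, *Cox6c* and *Cox7b* differed by -0.13 to -0.01 with SE of 0.14 to 0.15. *Cox7a2l*, a subunit-like protein that joins complexes III and IV in supercomplexes, differed by -0.18 ± 0.10 (edgeR adjusted p = 0.193). *Cox7c* differed by 0.45 ± 0.24 at the very low counts described above.

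The remaining subunits without a call had overlapping ranges in both groups. *Sdhb* read 398 to 455 CPM in WT and 268 to 402 CPM in Mtm1-/y muscle, *Sdhc* 362 to 380.3 and 237 to 408 CPM, and *Sdhd* 316 to 340.3 and 242 to 335 CPM. In complex III, *Uqcrb* read 84.6 to 96.6 CPM in WT and 85.4 to 119.6 CPM in Mtm1-/y muscle, *Uqcr10* 235 to 249.4 and 205 to 281 CPM, and *Uqcr11* 153 to 168 and 128 to 187 CPM. In each of these 3 the lowest mutant was replicate 1. In complex IV, *Cox5a* read 293 to 337 and 261 to 353 CPM, *Cox6b1* 384 to 432 and 281 to 418 CPM, *Cox6c* 171 to 194 and 122 to 185 CPM, and *Cox7b* 250.4 to 276 and 221 to 307 CPM in WT and Mtm1-/y muscle. For *Cox6b1* and *Cox6c* replicate 1 lay well below the other 3 mutants.

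The muscle and ubiquitous forms of complex IV subunits were compared gene by gene and as ratios within a library. The ubiquitous *Cox8a* read 8.80, 7.70, 10.9 and 7.13 CPM in WT and 19.3, 17.7, 12.3 and 14.5 CPM in Mtm1-/y muscle. All mutants were above all WT libraries, with a log2 fold change of 0.89 ± 0.18 (edgeR adjusted p = 0.00176), the largest rise of the 34. Ubiquitous *Cox6a1* read 11.3, 9.28, 13.2 and 9.50 CPM in WT and 17.0, 19.0, 15.3 and 14.8 CPM in Mtm1-/y muscle. It was likewise higher without overlap, by 0.61 ± 0.14 (edgeR adjusted p = 0.0053). *Cox7a2*, the third ubiquitous form, differed by 0.01 ± 0.13.

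Among the muscle forms, *Cox8b* read 187, 198, 203 and 238 CPM in WT and 235, 285, 314 and 277 CPM in Mtm1-/y muscle. Its groups met at the edge, and it rose by 0.43 ± 0.15 on the log2 scale (edgeR adjusted p = 0.04). That call was lost when any of WT replicates 1 to 3, Mtm1-/y replicates 2 to 4 or Mtm1-/y + TAM replicate 3 was left out (adjusted p = 0.0515 to 0.104) and held without the 2 libraries that stood apart (adjusted p = 0.00143). *Cox6a2* read 522, 505, 577 and 562 CPM in WT and 687, 566, 647 and 535 CPM in Mtm1-/y muscle. Its groups overlapped, with a difference of 0.17 ± 0.13 (edgeR adjusted p = 0.333). *Cox7a1* read 154, 304, 309.5 and 307 CPM in Mtm1-/y against 256 to 294 CPM in WT muscle, the first mutant being far below the rest, and differed by -0.03 ± 0.21.

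The muscle form dominated in all 3 pairs, to unequal degrees. The CPM ratio of *Cox6a2* to *Cox6a1* was 50.8 ± 7.22 (SD, n = 4) in WT, 58.8 ± 12.9 (n = 4) in WT + TAM, 37.2 ± 5.56 (n = 4) in Mtm1-/y and 37.3 ± 7.38 (n = 3) in Mtm1-/y + TAM muscle. That of *Cox8b* to *Cox8a* was 24.7 ± 6.46, 30.1 ± 10.2, 18.2 ± 5.62 and 18.4 ± 5.15 in the same order, and that of *Cox7a1* to *Cox7a2* only 1.71 ± 0.194, 1.71 ± 0.181, 1.65 ± 0.41 and 1.95 ± 0.174. The log2 ratio *Cox6a2* to *Cox6a1* differed between Mtm1-/y and WT by -0.45, with no overlap, at a 2-sided exact permutation p = 0.0286, the smallest that 4 against 4 mice allow. Over the 12 ratio comparisons made, its Benjamini-Hochberg adjusted value from the exact test was p = 0.343, and none of the 12 passed. No exact test among the 12 could give less than p = 0.0286. A shift confined to 1 pair could therefore not pass after adjustment, whatever its size.

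For *Cox8b* to *Cox8a* the Mtm1-/y minus WT difference in log2 ratio was -0.46 (exact permutation p = 0.2, adjusted 0.48) and for *Cox7a1* to *Cox7a2* it was -0.09 (exact permutation p = 0.771, adjusted 1). Under tamoxifen, Mtm1-/y + TAM differed from WT + TAM by -0.65 in the log2 ratio of *Cox6a2* to *Cox6a1* (exact permutation p = 0.0857), by -0.67 for *Cox8b* to *Cox8a* (exact permutation p = 0.171) and by 0.20 for *Cox7a1* to *Cox7a2* (exact permutation p = 0.2), all with overlapping groups. The rise of the ubiquitous *Cox6a1* and *Cox8a* left them at a small fraction of their muscle counterparts in every library.

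**Figure D4:**
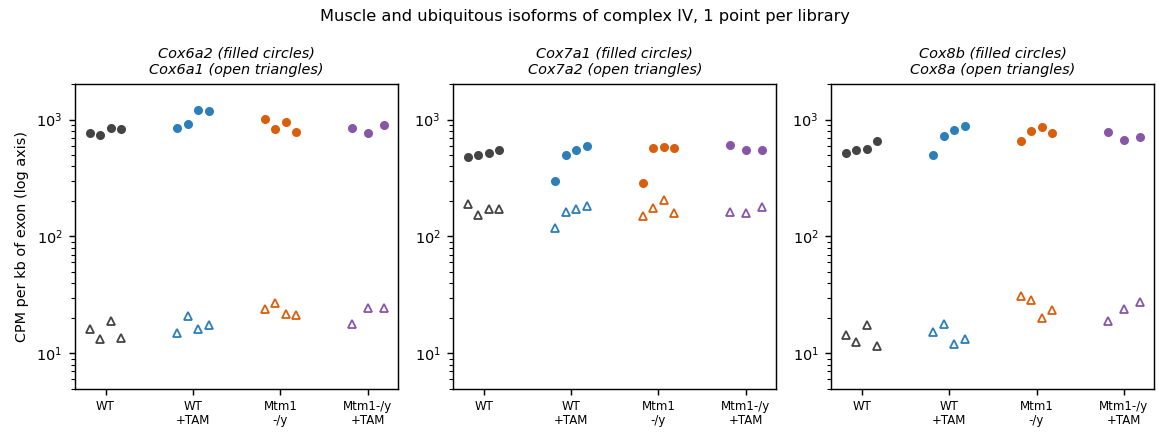
CPM per kb of exon, on a log axis, of the muscle form (filled circles) and the ubiquitous form (open triangles) of 3 complex IV subunits, 1 point per library in 4 groups. The forms of COX6A and COX8 lie more than 10-fold apart in every library, those of COX7A much closer, and the triangles of *Cox6a1* and *Cox8a* are higher in Mtm1-/y than in WT.

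Sequence upstream of these genes was read from the RefSeq promoter windows of GRCm38.p6, which run from 250 bases before to 50 after each transcription start and held 24 of the 34 members. Of the genes that changed in Mtm1-/y muscle, 2 that fell and 3 that rose are shown, 5′ to 3′ on the strand of the gene and ending before any annotated exon, since they moved in opposite directions. Capitals mark matches on either strand to motifs of factors known to control respiratory genes or muscle genes: NRF1 (GCGC, any base, TGCGC), ETS factors such as GABP (CCGGAAG), ERR (TCAAGGTCA), YY1 (AAGATGGC), SP1 (GGGCGG), MEF2 (CTA, any 4 bases, TAG) and the muscle E-box (CAGCTG).
*Sdha* (fell, chr13:74350281-74350490, minus strand): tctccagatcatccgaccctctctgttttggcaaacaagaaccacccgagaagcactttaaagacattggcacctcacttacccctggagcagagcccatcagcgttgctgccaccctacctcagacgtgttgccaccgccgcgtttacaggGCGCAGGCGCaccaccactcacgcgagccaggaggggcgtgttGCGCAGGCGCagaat
*Cycs* (fell, chr6:50566570-50566819, minus strand): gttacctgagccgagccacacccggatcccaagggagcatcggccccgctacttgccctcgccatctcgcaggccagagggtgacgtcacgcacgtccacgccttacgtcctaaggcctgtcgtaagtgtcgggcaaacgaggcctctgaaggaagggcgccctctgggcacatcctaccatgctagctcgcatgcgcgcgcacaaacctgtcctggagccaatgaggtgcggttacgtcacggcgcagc
*Cox6a1* (rose, chr5:115348982-115349208, minus strand): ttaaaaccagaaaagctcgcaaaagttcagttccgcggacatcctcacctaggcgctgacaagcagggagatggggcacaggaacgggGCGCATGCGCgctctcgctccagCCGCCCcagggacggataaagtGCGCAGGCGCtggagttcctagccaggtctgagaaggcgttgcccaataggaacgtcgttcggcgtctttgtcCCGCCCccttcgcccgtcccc
*Cox8a* (rose, chr19:7217617-7217866, minus strand): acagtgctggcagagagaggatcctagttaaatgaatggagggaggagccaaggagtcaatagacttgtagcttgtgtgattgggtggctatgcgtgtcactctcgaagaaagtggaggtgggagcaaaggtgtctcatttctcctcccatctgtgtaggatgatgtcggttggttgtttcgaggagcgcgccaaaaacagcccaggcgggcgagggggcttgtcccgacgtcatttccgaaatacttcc
*Cox8b* (rose, chr7:140900447-140900696, minus strand): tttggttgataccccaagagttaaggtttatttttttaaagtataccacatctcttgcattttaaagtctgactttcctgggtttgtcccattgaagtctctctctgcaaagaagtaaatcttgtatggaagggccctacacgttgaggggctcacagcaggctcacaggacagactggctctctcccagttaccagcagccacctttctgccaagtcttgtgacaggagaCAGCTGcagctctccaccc

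NRF1 matches stood in the windows of genes that moved in opposite directions. *Sdha*, which fell, held 3 of them, beginning at -98, -55 and -10 from the start, the last beyond the stretch shown, which ends before an annotated exon. *Uqcrc1*, which also fell, held 2 after its start, and *Cox6a1*, which rose, held 2, at -162 and -117. *Cox8a* held ETS matches at -5 and 33, across and after its start, and *Cox8b* held E-boxes at -19 and 17. *Cycs* had no match in the stretch shown and 1 SP1 match at 32. Over the 24 member windows the ETS motif was found in 10 (41.7%), against 8.86% of all 32851 windows, and NRF1 in 4 (16.7%), against 4.6%. SP1 was found in 10 (41.7%, against 35.7% of all windows), ERR in 1 (0.423%), the E-box in 1 (16.3%), MEF2 in 1 (3.69%) and YY1 in 0 (2.75%). No motif matches overlapped one another. These are matches of letters only, with no test and no measure of binding.

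None of the 5 assembly factors of complex IV passed the test in Mtm1-/y against WT. *Cox17*, the chaperone that brings copper to the complex, differed by 0.25 ± 0.10 (edgeR adjusted p = 0.0722), and *Surf1*, needed for insertion of haem, by 0.19 ± 0.07 (edgeR adjusted p = 0.0627). *Sco1*, which passes copper to the second subunit, read 10.4, 8.57, 7.96 and 8.59 CPM in WT and 6.64, 6.85, 7.62 and 6.98 CPM in Mtm1-/y muscle. Its groups did not overlap, and it differed by -0.34 ± 0.13 (edgeR adjusted p = 0.0551). These 3 passed without the 2 libraries, *Cox17* at 0.30, *Surf1* at 0.23 and *Sco1* at -0.32 (adjusted p = 0.0301, 0.027 and 0.0491). *Cox11*, a copper factor for the first subunit, and *Cox15*, of haem A synthesis, differed by -0.29 ± 0.14 and -0.12 ± 0.11.

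The subunits made from mitochondrial DNA fell beside the large nuclear ones. *mt-Cytb*, cytochrome b of complex III, read 21679, 21025, 19901 and 19149 CPM in WT and 10586, 11345, 14457 and 12746 CPM in Mtm1-/y muscle. The groups were far apart, with a log2 fold change of -0.73 ± 0.16 (edgeR adjusted p = 0.00325). *mt-Co1*, the catalytic subunit of complex IV, differed by -0.67 ± 0.17 (edgeR adjusted p = 0.00797), also without overlap. *mt-Co2* and *mt-Co3* were at or near 0 counts in every library of this table and were not tested. Libraries were prepared from polyadenylated RNA, and counts from the mitochondrial genome made up 7.75 to 8.16% of WT and 4.8 to 6.02% of Mtm1-/y libraries.

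Other genes of the same complexes were counted by lists. Of 4 further assembly factors of complex II, 1 fell (*Sdhaf3*, -0.60 ± 0.13) and none rose in Mtm1-/y against WT. Of 7 for complex III, 3 fell and 1 rose: *Bcs1l*, which inserts the Rieske protein (-0.76 ± 0.17), and *Uqcc1* (-0.61 ± 0.15) were among those that fell, and *Uqcc2* (0.57 ± 0.16) rose. Of 18 tested for complex IV, 3 rose and 2 fell, the strongest being *Cox16* (0.93 ± 0.25), *Taco1*, a translational activator of *mt-Co1* (-0.78 ± 0.23), and *Cox19* (0.67 ± 0.13). ATP synthase, the next complex of the chain, had 2 of 15 subunits lower, *Atp5a1* (-0.47 ± 0.16) and *Atp5c1* (-0.46 ± 0.13), and none higher. Of 18 regulators of mitochondrial genes, *Esrrb* (-0.93 ± 0.19) and the mitochondrial deacetylase *Sirt3* (-0.70 ± 0.15) fell and *Mef2c* (0.29 ± 0.10) rose. Of 5 other subunits and paralogues tested, *Ndufa4l2* fell (-0.52 ± 0.19), a gene that is also counted among the mural cell markers below. Called shares of these lists ran from 13.3% to 57.1%, beside 30.4% of all genes.

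Coding length moved with the direction of the members, a relation looked at after the data were seen. Among members with coding sequences of up to 400 bases (n = 18) the median log2 fold change of Mtm1-/y against WT was 0.11, above that and up to 800 bases (n = 6) it was -0.21, above that and up to 1500 bases (n = 9) it was -0.36, and *Sdha*, with 1992 bases, stood at -0.64. Medians of the other coding genes in the same classes were 0.16, 0.08, 0.01 and -0.02. Among other genes with at least 50 CPM in WT they were 0.03, 0.04, -0.03 and -0.05. *Cycs*, with 315 coding bases and a log2 fold change of -1.15, did not follow this order. The part of length in these differences was not tested.

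**Figure D5:**
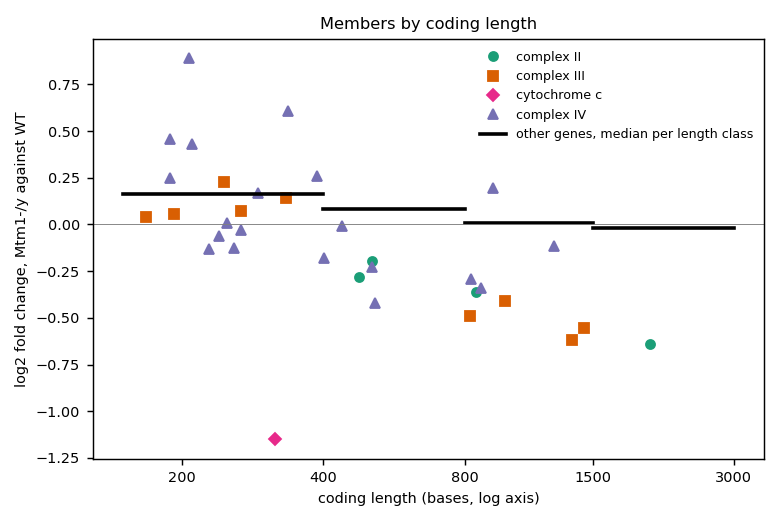
Log2 fold change of Mtm1-/y against WT for the 34 members against coding length in bases (log axis), with symbols by complex, and the median of all other coding genes in each of 4 length classes (black lines). Members up to 400 bases have a median of 0.11 and those above 800 and up to 1500 bases one of -0.36, while the black lines run from 0.16 to -0.02.

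Vessel markers moved with genotype as well. All 5 endothelial markers were lower in Mtm1-/y than in WT muscle (median -0.86), their summed level being 190.4 to 264 CPM against 376 to 493 CPM. Of 9 mural cell markers, 5 fell and 1 rose, with sums of 582 to 735 CPM against 877 to 1022 CPM, and no marker of either list was at 0. Their part in the members' differences was not tested. Fast fibre genes passed on the lower side in 1 of 10 (*Tnnt3*, -0.51 ± 0.11) and slow fibre genes in 1 of 8 (*Myl3*, -3.81 ± 0.48). Yet 6 of the 8 slow fibre genes had positive log2 fold changes, 5 of them without overlap, and the list median was 0.69. *Tnni1*, slow troponin I, read 1.58 to 2.52 CPM in WT against 11.7 to 17.3 CPM in mutant muscle (2.65 ± 1.02, edgeR adjusted p = 0.0656).

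Brown adipocytes share *Cox7a1* and *Cox8b* with muscle, and all 3 of their tested markers had positive log2 fold changes in Mtm1-/y against WT, 2 without overlap. *Cidea*, a lipid droplet protein, rose by 1.64 ± 0.39 (edgeR adjusted p = 0.00556). *Ucp1*, the uncoupling protein that defines these cells, read 0.443, 0.276, 0.177 and 0.352 CPM in WT, 2.48, 1.17, 0.889 and 2.98 in Mtm1-/y and 13.7, 12.7 and 19.4 CPM in Mtm1-/y + TAM muscle. Its groups did not overlap, with a log2 difference of 2.54 ± 0.97 from WT in untreated mutants (edgeR adjusted p = 0.064) and a rise of 5.53 ± 0.99 in treated ones (edgeR adjusted p = 0.00191). The rise in treated mutants was taken against untreated WT, so both genotype and tamoxifen differ in it. In WT + TAM against WT, 2 of the 3 tested markers had positive and 1 a negative log2 fold change, from -0.45 to 3.97 (median 0.07). Of these, 1 was higher without overlap and 0 were called. *Elovl3* was at or near 0 in every library. The summed markers gave 26.5 to 36.3 CPM in WT against 20.7 to 69.3 CPM in mutant muscle, of which *Ppargc1a*, a coactivator that muscle itself expresses, made up 25.2 to 34.7 and 14.7 to 59.0 CPM. White adipocyte markers went the other way in Mtm1-/y against WT, with 6 of 6 lower (median -1.47), 2 without overlap and 0 called. Their sums were 5.63 to 11.4 CPM in WT and 0.94 to 6.46 CPM in Mtm1-/y muscle. The part of slow fibres or of either kind of adipocyte in the members' differences was not tested.

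Tamoxifen in wild-type mice changed none of the 34 genes by edgeR, against 0.309% of all genes. At an unadjusted p under 0.05 there were 5 of 34 members (*Cycs*, *Cox5b*, *Cox6a2*, *Cox8b* and *Cox17*), beside 1756 of all 15533 genes. DESeq2 called 1, *Cox17*, and limma-voom 0. Over all genes DESeq2 called 184 higher and 114 lower, limma-voom 21 and 18, and edgeR 28 and 20. *Cox17* read 10.4, 11.3, 11.2 and 12.3 CPM in WT and 8.70, 8.87, 7.11 and 8.58 CPM in WT + TAM muscle. Treated mice were all below untreated ones, with a log2 difference of -0.44 ± 0.10 (edgeR adjusted p = 0.0902). *Cycs* read 13.6, 21.8, 18.4 and 22.1 CPM in WT + TAM muscle, all below WT, a difference of -0.50 ± 0.21 (edgeR adjusted p = 0.393), or -0.33 with its copies added. *Cox6a2* read 578, 618, 820.2 and 808 CPM, just above every WT library, a difference of 0.38 ± 0.13 (edgeR adjusted p = 0.245). These were the 1 member higher and the 2 lower without overlap, against 4.22% and 3.86% of all genes.

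WT + TAM replicate 1 widened the spread of this group. It read 682 CPM of *Sdha* against 948 to 1148 CPM in the other 3 treated wild types, and 451 CPM of *Uqcrc2* against 675 to 794 CPM. Its slow fibre genes summed to 1376 CPM, and to 68.3 to 123 CPM in replicates 2 to 4, and its white adipocyte markers to 72.9 CPM against 0.648 to 9.63 CPM. Its fibroblast markers summed to 3064 CPM against 681 to 1224 CPM, Schwann cell markers to 192 against 68.1 to 126 CPM and endothelial markers to 245 against 394 to 457 CPM. In Mtm1-/y replicate 1 fibroblast markers summed to 324 CPM, and to 781 to 1322 CPM in replicates 2 to 4 of that group. Its blood markers summed to 14.9 against 54.6 to 66.5 CPM. The part of these cells in the low values of the 2 libraries was not tested. Without this library and Mtm1-/y replicate 1, 4 members passed: *Uqcrq* (0.38), *Cox6a2* (0.47) and *Cox8b* (0.49) were higher and *Cox17* (-0.47) lower in WT + TAM (adjusted p = 0.0441, 0.0337, 0.0178 and 0.0299). Without Mtm1-/y replicate 1 alone, 1 member passed, beside 89 genes higher and 54 lower over all genes.

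In Mtm1-/y mice tamoxifen also changed none of the 34 genes by edgeR, DESeq2 or limma-voom, against 0.0129% of all genes by edgeR. At an unadjusted p under 0.05, for which the share over all genes is not given here, *Cycs* was the 1 member. It read 8.21, 10.9, 18.6 and 10.6 CPM in Mtm1-/y and 19.9, 14.6 and 19.1 CPM in Mtm1-/y + TAM muscle. Treated values lay in the upper part of the untreated range and beyond, with a log2 fold change of 0.56 ± 0.23 (edgeR adjusted p = 0.855), and of 0.34 with its near-identical copies added (adjusted p = 0.855). *Sdha* read 748, 671 and 745 CPM in treated mutants, inside the untreated range, and differed by 0.16 ± 0.16. *Uqcrc2* read 589.5, 546 and 559 CPM, also inside that range, and differed by 0.26 ± 0.17. The members' median was 0.11, against -0.0031 for all genes, and 0.02 without the 2 libraries, where again 0 members passed. *Cox6b1* alone did not overlap, higher in treated mutants, at 425, 454 and 419 CPM against 281 to 418 CPM, against 3.34% of all genes on that side and 2.38% on the lower one.

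Under tamoxifen, Mtm1-/y + TAM differed from WT + TAM in 2 of 34 members, both higher, against 20.1% of all genes (10.6% higher and 9.46% lower). *Cox17* read 14.1, 15.7 and 14.8 CPM in Mtm1-/y + TAM and 8.70, 8.87, 7.11 and 8.58 CPM in WT + TAM muscle. The groups were widely separated, with a log2 fold change of 0.85 ± 0.11 (edgeR adjusted p = 0.000123), and 0.87 without the 2 libraries. In the annotation 257 exon bases of *Cox17* overlap the gene *Gm21987* on the same strand. *Cox8a* read 11.7, 15 and 17.2 CPM in Mtm1-/y + TAM and 9.36, 11.0, 7.45 and 8.23 CPM in WT + TAM muscle. It did not overlap either and rose by 0.71 ± 0.19 (edgeR adjusted p = 0.0163), a call lost without WT + TAM replicate 3 (adjusted p = 0.0521) or Mtm1-/y + TAM replicate 2 (0.0576) or 3 (0.0834). Without the 2 libraries that stood apart it was 0.74 (adjusted p = 0.011). In all, 6 members did not overlap, all higher (17.6%, against 17.2% of all genes on that side and 14.4% on the lower one): *Uqcrh*, *Uqcr11*, *Cox7a2l*, *Cox8a*, *Surf1* and *Cox17*.

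The large subunits did not pass in this comparison, in which WT + TAM replicate 1 lay inside or below the range of the treated mutants for *Sdha*, *Uqcrc1* and *Uqcrc2*. *Sdha* differed by -0.38 ± 0.17 (edgeR adjusted p = 0.122), *Uqcrc1* by -0.29 ± 0.17 and *Uqcrc2* by -0.22 ± 0.17. Without WT + TAM replicate 1 alone 7 members passed, beside 1722 genes higher and 1617 lower over all genes. Without both libraries 2324 genes were called higher and 2276 lower over all genes, and 11 members passed, 3 higher and 8 lower. Among them were *Sdha* (-0.50), *Uqcrc1* (-0.44), *Uqcrc2* (-0.37) and *Cyc1* (-0.34), with adjusted p = 0.0079, 0.00847, 0.024 and 0.0335, and the hinge protein *Uqcrh* was higher (0.30, adjusted p = 0.0119). *mt-Cytb* and *mt-Co1* were lower in the full set of libraries, with log2 differences of -0.59 ± 0.17 and -0.66 ± 0.18 (edgeR adjusted p = 0.0272 and 0.0198).

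Treated mutants were also set against untreated WT mice, which serve as controls in the first comparison too, so the sets of differences are not independent. Of the 34 genes 6 passed, against 23.3% of all genes (11.9% higher and 11.3% lower): *Cox6a1*, *Cox8a*, *Surf1* and *Cox17* were higher and *Sdha* and *Cox4i2* lower. *Sdha* differed by -0.48 ± 0.17 (edgeR adjusted p = 0.0463), beside -0.64 ± 0.15 in untreated mutants. *Cox6a1* and *Cox8a* differed by 0.53 ± 0.15 and 0.77 ± 0.19 (edgeR adjusted p = 0.021 and 0.00905). *Cox17* rose by 0.40 ± 0.11 (edgeR adjusted p = 0.0146) and *Surf1* by 0.23 ± 0.08 (edgeR adjusted p = 0.047). Non-overlapping values divided the list, with 9 genes higher (26.5%, against 21.3% of all genes) and 10 lower (29.4%, against 20.2%). On the higher side were the small complex III subunits *Uqcrq*, *Uqcrh*, *Uqcr10* and *Uqcr11*, and on the lower side *Uqcrc1*, *Uqcrc2*, *Uqcrfs1*, *Cyc1*, *Sdha*, *Sdhd* and *Cycs*.

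*Cox4i2*, the form of subunit 4 known from lung and from vessel wall cells, was scarce in this muscle. It read 2.41, 2.37, 3.27 and 3.31 CPM in WT, 1.14, 2.5, 2.87 and 2.25 in WT + TAM, 1.33, 2.54, 2.60 and 2.04 in Mtm1-/y and 1.38, 1.32 and 1.69 in Mtm1-/y + TAM muscle. Treated mutants lay below all WT libraries, with a log2 difference of -0.95 ± 0.30 (edgeR adjusted p = 0.0306). In the same comparison 7 of 9 mural markers and 5 of 5 endothelial markers were lower, with summed levels of 539.5 to 627 CPM against 877 to 1022 CPM and of 200.5 to 259 CPM against 376 to 493 CPM. Their part in the *Cox4i2* difference was not tested. This count of 6 fell to 3 without WT replicate 2, 2 without WT replicate 4, 3 without Mtm1-/y + TAM replicate 1 and 1 without replicate 2 or 3, and rose to 10 without WT + TAM replicate 1 and to 15 without the 2 libraries. Calls over all genes, 1854 higher and 1761 lower in the full set, were 2094 and 2022 without WT + TAM replicate 1. They were 2686 and 2574 without the 2 libraries. Where the count of members fell, calls over all genes fell too. They were 1347 and 1267 without WT replicate 2 and 1429 and 1349 without WT replicate 4. Leaving out Mtm1-/y + TAM replicate 1, 2 or 3 gave 1424 and 1271, 1170 and 1018, or 1367 and 1105. The calls of *Sdha* and *Surf1* were each lost under 14 of 28 alternatives, that of *Cox4i2* under 6, *Cox6a1* under 4, *Cox17* under 2 and *Cox8a* under 1.

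No member passed the test of the interaction, which asks whether the tamoxifen difference in Mtm1-/y mice departs from that in WT mice, and none of all 15533 genes did by edgeR. At an unadjusted p under 0.05 there were 5 members. The share over all genes at that limit is not given here, so the count is not read as a result about the members. DESeq2 and limma-voom called 0 members. Over all genes DESeq2 called 17 higher and 57 lower, and limma-voom 0. Without the 2 libraries that stood apart 0 members passed as well, and the members' median interaction went from 0.16 to -0.05. *Cycs* had the largest value, 1.06 ± 0.31 (edgeR adjusted p = 0.357), its log2 difference being -0.50 in WT and 0.56 in Mtm1-/y mice. With its near-identical copies added the interaction was 0.67 (adjusted p = 0.356), and without the 2 libraries that stood apart 0.79. *Cox17* followed at 0.60 ± 0.15 (edgeR adjusted p = 0.308), with differences of -0.44 in WT and 0.15 in Mtm1-/y mice. The other 3 were *Cox7a2l* at 0.35 ± 0.15, *Cox5b* at -0.42 ± 0.18 and *Cox6a2* at -0.48 ± 0.19.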

How the data were processed

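RNA of 15 tibialis anterior muscles was sequenced from TruSeq Stranded mRNA libraries. The deposited table holds raw counts of reads per Ensembl gene, made by the authors and not normalized. Per the labels, their processing used cutadapt 1.10, Bowtie2 2.2.8, STAR 2.5.3a and HTSeq 0.6.1p1 with mm10 and GRCm38. No source read here gives the roles of these tools, the annotation release or the strand setting, so a gene and an overlapping gene may share reads.

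Groups came from the labels. Genes were kept by filterByExpr (minimum count 10), scaled by TMM, and fitted with edgeR 4.0.16 in R 4.3.3 (quasi-likelihood, 4 group means, 15 libraries, 11 residual degrees of freedom). The p-values were adjusted by Benjamini-Hochberg over all genes tested, with a threshold of 0.05. Log2 fold changes are given with their standard errors. Levels are CPM, and 1 count is worth 0.0218 to 0.0554 CPM before TMM scaling. Isoform ratios used a pseudocount of 0.5 and exact permutation tests. Near-identical copies were found with blastn 2.17.0. The method was tested on simulated data. Limma 3.58.1, DESeq2 1.42.0, other scalings and filters, a replicate block and leaving out each library were the alternatives. All 34 members are named, and from each further list at most 3 genes with the largest change in Mtm1-/y against WT among those called. The members and lists were chosen with earlier results of these data known. The labels do not say that replicates share a litter or batch.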

Additional observations from a re-analysis of the deposited data

Results flagged for a closer look

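Of 102 groups of 4 libraries tested for a library far from the other 3, 8 stood out for a member, by Dixon's test at the 95% level; chance gives such a value in about 1 in 20 groups. Mtm1-/y replicate 1 was far below its group in 3 genes, *Uqcrh* (223 CPM, the nearest library at 355), *Cox4i1* (658 CPM, nearest 844) and *Cox7a1* (154 CPM, nearest 304). Mtm1-/y replicate 3 was far above it in *Sdhd* (335 CPM, nearest 256) and *Uqcrc1* (934 CPM, nearest 724). WT + TAM replicate 1 was far below its group in *Cox7a2l* (41.5 CPM, nearest 46.2) and *Cox15* (32.6 CPM, nearest 37.9), and WT + TAM replicate 3 in *Cox17* (7.11 CPM, nearest 8.58).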

How the results depend on the processing

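Of the 8 genes called in Mtm1-/y against WT, 6 kept direction and call under all 28 alternatives, and *Cox8b* and *Uqcrfs1* lost theirs under 9 and 5. None of the calls in any comparison changed direction. When both libraries that stood apart were left out, members called numbered 16 in Mtm1-/y against WT, 4 in WT + TAM against WT, 11 in Mtm1-/y + TAM against WT + TAM and 15 in Mtm1-/y + TAM against WT. Calls over all genes were then, in the same order, 2619 higher and 2638 lower, 205 and 142, 2324 and 2276, and 2686 and 2574. DESeq2 gave 1 in WT + TAM against WT, library size alone 5 in Mtm1-/y + TAM against WT + TAM, and in Mtm1-/y + TAM against WT fitting only the groups compared gave 16 and a fold limit of 0.5 on the log2 scale gave 3. Over all genes these settings gave, in the same order, 184 higher and 114 lower, 2685 and 783, 2729 and 2691, and 1335 and 1331. The cause was not tested.

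Leaving out 1 library at a time, the members called ranged from 7 to 12 in Mtm1-/y against WT, 0 to 1 in WT + TAM against WT (1 without Mtm1-/y replicate 1), 1 to 7 in Mtm1-/y + TAM against WT + TAM (7 without WT + TAM replicate 1, 1 without WT + TAM replicate 3 or Mtm1-/y + TAM replicate 2 or 3) and 1 to 10 in Mtm1-/y + TAM against WT. Calls over all genes moved as well. In Mtm1-/y against WT they were 1882 higher and 1811 lower without WT replicate 4, and 2567 and 2549 without WT + TAM replicate 1. In Mtm1-/y + TAM against WT + TAM they were 949 and 707 without Mtm1-/y + TAM replicate 2, and 1722 and 1617 without WT + TAM replicate 1. The log2 ratio of *Cox7a1* to *Cox7a2* changed sign, ranging from -0.20 to 0.10 in Mtm1-/y against WT and from -0.0843 to 0.0757 in WT + TAM against WT. In Mtm1-/y + TAM against Mtm1-/y, *Cox6a2* to *Cox6a1* ranged from -0.15 to 0.12 and *Cox8b* to *Cox8a* from -0.18 to 0.21.

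With library size alone the median of all genes was 0.15 in untreated mutants against WT, 0.14 in treated mutants against WT + TAM and 0.17 in treated mutants against WT. Calls over all genes were then 2685 higher and 783 lower (1652 and 1469 with TMM) with WT + TAM as control, and 3095 and 956 (1854 and 1761) with WT as control.

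Replicate numbers were shared by the groups without a stated link. Deviations of same-numbered libraries correlated at -0.113 to 0.306, 6 of 21 pairs over 0.1, and 5 of 15 libraries were closest to their own number. With the replicate block 8, 0, 0, 3, 4 and 0 members were called in the 5 comparisons and the interaction. Over all genes the block gave 2232 higher and 2241 lower in Mtm1-/y against WT, and 25 and 8 in WT + TAM against WT. It gave 2 and 0 in Mtm1-/y + TAM against Mtm1-/y, 1707 and 1596 in Mtm1-/y + TAM against WT, and 0 in the interaction. In Mtm1-/y + TAM against WT + TAM both counts were below the 1652 higher and 1469 lower found without the block.

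The interaction was not fitted on only the groups compared, since it uses all 4. *Cycs* and *Cox7c* are limited by reads shared with copies, and *Cox7c* and *Cox4i2* by few counts.

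Of 204 pairs of a member and a comparison, 70 turned in sign under some alternative, in 177 values. None of these pairs was called in the full fit or where it turned, and their log2 values were at most 0.27 in size in the full fit and 0.16 where they turned. With RLE factors the values that turned were, in Mtm1-/y against WT *Cox5a* (0.0047). With upper-quartile factors the values that turned were, in Mtm1-/y against WT *Uqcr11* (-0.0044) and *Cox7a2* (-0.040), in Mtm1-/y + TAM against WT *Cox5a* (-0.00011), *Cox6c* (-0.0034) and *Cox7a2l* (-0.00067), in the interaction *Uqcr10* (0.030) and *Surf1* (0.039). With library size alone the values that turned were, in Mtm1-/y against WT *Cox5a* (0.13), *Cox6b1* (0.017), *Cox6c* (0.011), *Cox7b* (0.077), *Cox7a1* (0.11) and *Cox15* (0.033), in Mtm1-/y + TAM against WT + TAM *Sdhc* (0.13), *Sdhd* (0.11), *Uqcrfs1* (0.10), *Uqcrb* (0.083), *Cycs* (0.070), *Cox5b* (0.00036) and *Cox8b* (0.15), in Mtm1-/y + TAM against WT *Sdhb* (0.020), *Sdhc* (0.10), *Sdhd* (0.0046), *Cox4i1* (0.10), *Cox7b* (0.12), *Cox7a2* (0.13) and *Cox15* (0.074), in the interaction *Uqcr10* (0.0077) and *Surf1* (0.0073). With no filter the values that turned were, in Mtm1-/y against WT *Cox5a* (0.00076), in Mtm1-/y + TAM against Mtm1-/y *Cox7b* (-0.0027) and *Cox15* (-0.0019). With DESeq2 the values that turned were, in Mtm1-/y against WT *Cox5a* (0.0047). With the replicate block the values that turned were, in Mtm1-/y against WT *Cox7a2* (-0.0018), in Mtm1-/y + TAM against Mtm1-/y *Cox15* (-0.0039), in Mtm1-/y + TAM against WT + TAM *Sdhc* (0.042), *Sdhd* (0.0013) and *Cox8b* (0.075), in the interaction *Uqcr10* (0.040) and *Surf1* (0.011). Without both libraries that stood apart the values that turned were, in Mtm1-/y against WT *Cox5a* (0.063) and *Cox7a1* (0.16), in WT + TAM against WT *Sdha* (0.019), *Sdhc* (0.12), *Sdhd* (0.063), *Uqcrc1* (0.022), *Uqcrc2* (0.0041), *Uqcr11* (0.11), *Cyc1* (0.076), *Cox5a* (0.095), *Cox6b1* (0.087), *Cox6c* (0.049), *Cox7a1* (0.093) and *Cox7a2* (0.013), in Mtm1-/y + TAM against Mtm1-/y *Uqcrq* (-0.048), *Uqcr10* (-0.0033), *Cox5a* (-0.040) and *Cox7a1* (-0.0057), in Mtm1-/y + TAM against WT + TAM *Uqcrq* (-0.11), *Uqcr10* (-0.088), *Cox4i1* (-0.061), *Cox5a* (-0.071), *Cox6c* (-0.029), *Cox7a2* (-0.053) and *Cox15* (-0.030), in the interaction *Sdhb* (-0.043), *Sdhc* (-0.11), *Uqcr11* (-0.050), *Cox5a* (-0.13), *Cox6c* (-0.021), *Cox7a1* (-0.10), *Cox7a2* (-0.12) and *Cox11* (-0.10). With limma-voom the values that turned were, in WT + TAM against WT *Sdhb* (-0.011), in Mtm1-/y + TAM against WT + TAM *Sdhc* (0.0058), *Sdhd* (0.0010) and *Cox8b* (0.027), in the interaction *Uqcr10* (0.021). The ranges of those that turned when 1 library at a time was left out follow for each comparison. In Mtm1-/y against WT they were *Cox7a2* (-0.063 to 0.069), *Cox5a* (-0.075 to 0.064), *Cox7a1* (-0.10 to 0.16) and *Uqcr11* (-0.023 to 0.15). In WT + TAM against WT they were *Sdhb* (-0.075 to 0.17), *Uqcr11* (-0.064 to 0.11), *Cox5a* (-0.13 to 0.094), *Cox8a* (-0.050 to 0.19), *Sdha* (-0.22 to 0.018), *Sdhc* (-0.13 to 0.12), *Sdhd* (-0.22 to 0.062), *Uqcrc1* (-0.24 to 0.022), *Uqcrc2* (-0.24 to 0.0038), *Cyc1* (-0.19 to 0.075), *Cox6b1* (-0.12 to 0.086), *Cox6c* (-0.14 to 0.048), *Cox7a1* (-0.19 to 0.093) and *Cox7a2* (-0.18 to 0.013). In Mtm1-/y + TAM against Mtm1-/y they were *Uqcrq* (-0.048 to 0.14), *Uqcr10* (-0.0034 to 0.13), *Cox5a* (-0.040 to 0.10), *Cox7a1* (-0.0059 to 0.26), *Cox7b* (-0.044 to 0.11), *Cox15* (-0.047 to 0.084), *Uqcrb* (-0.11 to 0.044), *Cox7a2* (-0.11 to 0.031), *Cox11* (-0.13 to 0.11), *Cox6a1* (-0.15 to 0.051), *Cox8a* (-0.26 to 0.012) and *Cox7c* (-0.024 to 0.22). In Mtm1-/y + TAM against WT + TAM they were *Uqcrq* (-0.11 to 0.15), *Uqcr10* (-0.089 to 0.11), *Cox4i1* (-0.062 to 0.17), *Cox5a* (-0.071 to 0.15), *Cox6c* (-0.030 to 0.16), *Cox7a2* (-0.054 to 0.14), *Cox15* (-0.030 to 0.049), *Sdhc* (-0.18 to 0.069), *Sdhd* (-0.23 to 0.049), *Cox8b* (-0.15 to 0.090), *Uqcrfs1* (-0.23 to 0.031), *Uqcrb* (-0.20 to 0.010), *Cycs* (-0.22 to 0.040) and *Cox7c* (-0.018 to 0.26). In Mtm1-/y + TAM against WT they were *Cox6c* (-0.0078 to 0.053), *Cox7a2l* (-0.048 to 0.11), *Cox7a2* (-0.10 to 0.0098), *Cox5a* (-0.0070 to 0.061) and *Cox7b* (-0.10 to 0.039). In the interaction they were *Surf1* (-0.042 to 0.035), *Uqcr10* (-0.14 to 0.057), *Cox5a* (-0.060 to 0.16), *Cox7a2* (-0.061 to 0.14), *Cox11* (-0.0043 to 0.24) and *Cox4i2* (-0.37 to 0.0096).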
